A study of Mus musculus with 9 samples.

Results

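Antigen processing was followed through 10 genes of the mouse, taken by symbol from 19938 genes measured with a probe set of a single gene: B2m, Tap1, Tap2, Tapbp, Psmb8, Psmb9, Psmb10, Nlrc5, Ciita and Cd74. All 10 were found. They were measured by array in 3 osteosarcoma lines, 3 osteoblast cultures and 3 pre-osteoblast cultures, and the values are log2 expression levels, on which a step of 1 is a doubling. The osteosarcoma lines 493H, 494H and 716H are tumour lines of adult C57BL/6 mice of the genotype Osx-Cre p53fl/fl Rbfl/fl, in which Cre under the Osterix (Osx) promoter deletes both tumour suppressors in osteoblast precursors. The labels describe all 3 lines as fibroblastic. 493H and 716H came from females and 494H from a male. They were grown subconfluent, below passage 8, and each was hybridised once. Pre-osteoblasts are undifferentiated Kusa4b10 cells, a mouse bone marrow stromal line, and osteoblasts are the same line after 21 days in medium with ascorbate. The age, sex and strain behind Kusa4b10 are not given in the labels. Tumour genotype, source and culture therefore cannot be told apart in comparisons of the lines with Kusa4b10, and all Kusa4b10 cultures stand for 1 line.

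MHC class I molecules present peptides made inside the cell. Proteasomes cut proteins into peptides, the TAP transporter carries the peptides into the endoplasmic reticulum, and a loading complex fits them to a heavy chain paired with beta-2 microglobulin. Under interferon, the catalytic subunits of the standard proteasome are exchanged for those of the immunoproteasome, and Nlrc5 raises transcription of class I genes. Class II presentation, governed by Ciita, belongs mainly to specialised antigen-presenting cells.

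Of the class I genes, Tap1, Tap2, Tapbp, Psmb8, Psmb9 and Psmb10 had their highest group mean in pre-osteoblasts, and B2m and Nlrc5 in osteoblasts. In osteoblasts against pre-osteoblasts, 4 of the 10 genes were lower (Tap1, Tapbp, Psmb9, Psmb10) and 1 was higher (B2m) at a limma adjusted p below 0.05, where 15.8% of all genes were lower and 10.3% higher. In osteosarcoma against pre-osteoblasts, 4 were lower (Tap1, Tap2, Tapbp, Psmb9) and 0 higher, against 13.5% and 9.96% of all genes. In osteosarcoma against osteoblasts, 3 were lower (B2m, Tap2, Nlrc5) and 0 higher, against 12.7% and 14.7%. The median difference of the 10 genes was -0.62, -0.81 and -0.29 in these comparisons, and that of all genes was -0.0036, -0.0159 and -0.0180. The comparisons share groups, so they are not independent of each other. In osteoblasts against pre-osteoblasts, repeated quantile normalization called 2664 genes higher and 2656 lower in place of 2049 and 3153.

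**Figure D1:**
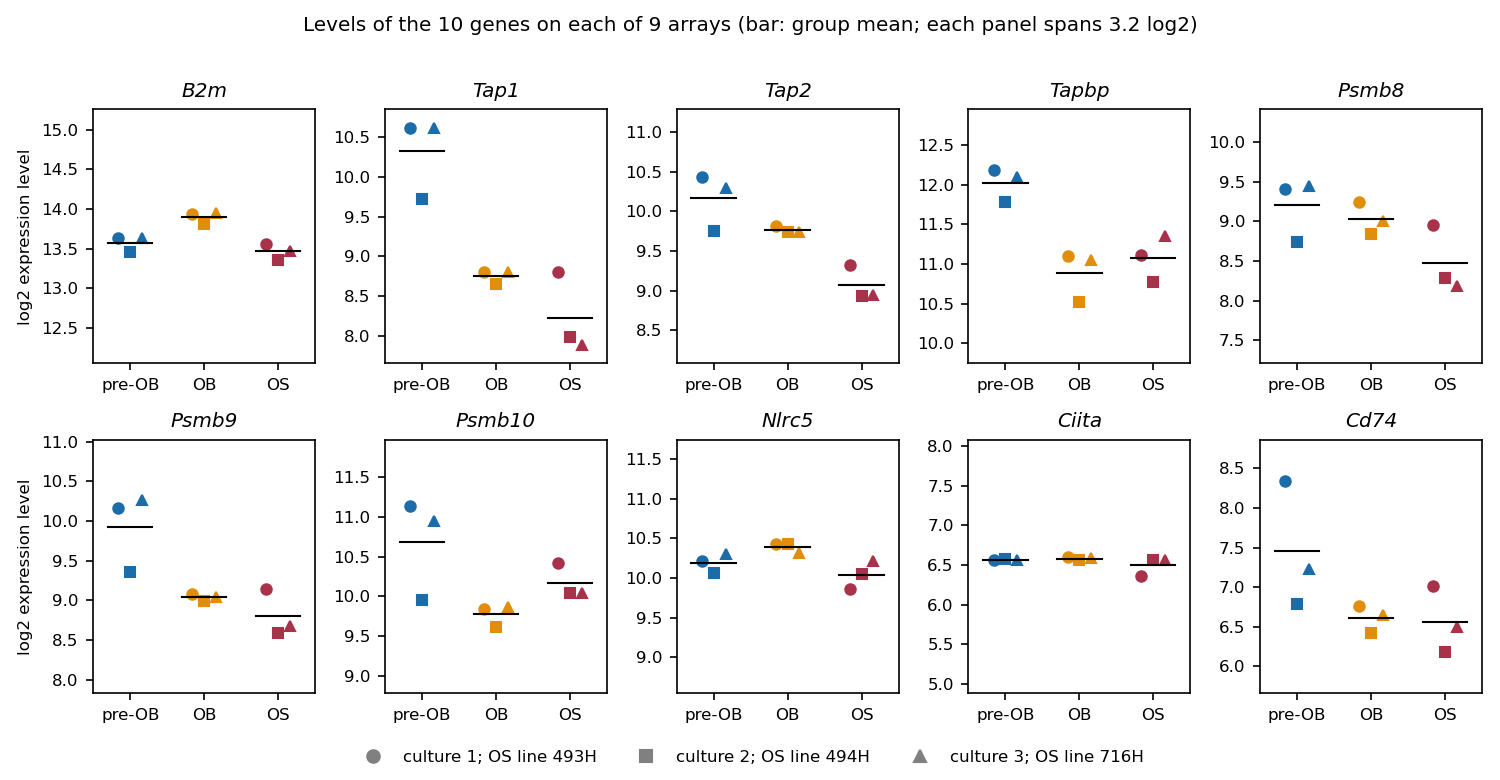
Log2 expression level (y axis) of each of the 10 genes on each array, by group on the x axis (pre-OB, pre-osteoblast; OB, osteoblast; OS, osteosarcoma); circles, squares and triangles are replicates 1, 2 and 3, or lines 493H, 494H and 716H, and bars are group means. Tap1 was between 9.72 and 10.63 in pre-osteoblasts and between 7.88 and 8.81 on the other arrays, while Ciita stayed between 6.36 and 6.60.

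Array medians over all probe sets lay between 7.43 and 7.56, and arrays of a group correlated at 0.993 to 0.998 in osteoblasts, 0.994 to 0.997 in pre-osteoblasts and 0.982 to 0.987 in osteosarcoma. Some arrays stood apart in these genes. Pre-osteoblast culture 2 was the lowest of its group for 9 of the 10 genes, against 32.8% of all genes, with a median of -0.65 relative to the mean of the other cultures. In the same culture 27 of 27 interferon-stimulated genes were the lowest, with a median of -1.26. Osteoblast culture 2 was also the lowest of its group for 9 of the 10 genes, against 35.7% of all genes, but by less (median -0.15). Line 493H was the highest of the tumour lines for 7 of the 10 genes and 25 of 27 interferon-stimulated genes, against 20.2% of all genes. Its median relative to the mean of the other lines was 0.38 over the 10 genes and 1.29 over the 27. Osteoblast culture 2 was the lowest of its group for 22 of the 27 (median -0.49). Line 716H was the lowest of the lines for 24 of 27 (median -0.90), against 31.6% of all genes. Results are therefore given with and without these arrays where a call or size turned on them. The part of these low and high interferon-stimulated genes in the differences was not tested.

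Promoter sequence is shown for 4 genes whose levels are described next: the stretch that Tap1 shares with Psmb9, because both genes were lower in both other groups than in pre-osteoblasts, and those of B2m and Psmb8, because they hold interferon or NF-kB motifs. Sequences are from RefSeq on build GRCm38.p6, plus strand, ending at the last base before the transcription start, and capitals mark motif matches.

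Tap1 and Psmb9, chr17:34187331-34187555: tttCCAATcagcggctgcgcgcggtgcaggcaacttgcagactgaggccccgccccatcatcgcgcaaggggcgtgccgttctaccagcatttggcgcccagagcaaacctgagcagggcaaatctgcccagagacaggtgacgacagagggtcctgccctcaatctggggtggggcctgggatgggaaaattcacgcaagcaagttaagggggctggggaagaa
B2m, chr2:122147437-122147686: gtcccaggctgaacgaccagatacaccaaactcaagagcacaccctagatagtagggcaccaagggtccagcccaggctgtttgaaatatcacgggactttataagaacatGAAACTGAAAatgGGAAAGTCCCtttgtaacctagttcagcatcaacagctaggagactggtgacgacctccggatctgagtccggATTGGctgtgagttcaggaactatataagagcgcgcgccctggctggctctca
Psmb8, chr17:34197945-34198194: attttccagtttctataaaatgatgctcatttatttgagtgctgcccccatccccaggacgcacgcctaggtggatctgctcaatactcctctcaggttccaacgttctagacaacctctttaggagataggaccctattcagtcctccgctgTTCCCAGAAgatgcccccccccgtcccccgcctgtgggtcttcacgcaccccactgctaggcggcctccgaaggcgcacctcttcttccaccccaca

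Tap1 and Psmb9 are transcribed away from each other from starts 226 bases apart, so the printed stretch is the promoter of both. On chromosome 17, Psmb9, Tap1, Psmb8 and Tap2 lie next to each other with 0 protein-coding genes in between, and Tapbp lies 17 protein-coding genes away. Motifs were searched on both strands over 300 bases, from 250 before to 50 after each start, for 6 of the 10 genes: B2m, Tap1, Tapbp, Psmb8, Psmb9 and Psmb10. The interferon-stimulated response element, GAAANNGAAA, was found in B2m at -139 to -130, and 3.43% of 32817 promoters hold it. An NF-kB motif stood beside it at -126 to -117 (8.46% of promoters). The gamma-activated site TTCNNNGAA was found in Psmb8 at -97 to -89, where it reads as a match on both strands (8.29% of promoters). A CCAAT box, bound by NF-Y, was found in B2m at -53 to -49, in Tapbp at -248 to -244 and -165 to -161, and in the stretch shared by Tap1 and Psmb9, at -222 to -218 counted from Tap1 and -8 to -4 counted from Psmb9 (37.4% of promoters). Psmb10 held none of the 4 motifs in its window. A match describes letters and does not show that a factor binds.

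B2m encodes beta-2 microglobulin, the light chain of every class I molecule. Its level was 13.94, 13.80 and 13.95 in the osteoblast cultures, 13.63, 13.45 and 13.63 in pre-osteoblasts, and 13.56, 13.36 and 13.47 in lines 493H, 494H and 716H. All osteoblast cultures lay above all other arrays, and the tumour lines overlapped the pre-osteoblasts. In osteoblasts B2m exceeded the pre-osteoblast level by 0.32 ± 0.08 (SE, 3 arrays per group), or 1.25-fold (limma adjusted p = 0.0181), and this call was lost without osteoblast culture 1 (adjusted p = 0.0665) or 3 (0.0687), or without pre-osteoblast culture 2 (0.0620). Osteosarcoma was lower than osteoblasts by a log2 difference of -0.44 ± 0.08 (adjusted p = 0.00451), a call kept under every alternative run, and differed from pre-osteoblasts by -0.11 ± 0.08 (adjusted p = 0.388).

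Tap1 and Tap2 encode the subunits of the peptide transporter. Tap1 was at 10.63, 9.72 and 10.62 in undifferentiated cultures, 8.81, 8.65 and 8.81 in osteoblast cultures, and 8.81, 7.99 and 7.88 in 493H, 494H and 716H. Every pre-osteoblast culture lay above every other array, and line 493H stood level with the osteoblasts while the other lines lay lower. Tap1 showed the widest range of the 10 genes over the 9 arrays, 2.74. The difference was -1.57 ± 0.30 in osteoblasts (2.97-fold lower, adjusted p = 0.00559) and -2.10 ± 0.30 in osteosarcoma (4.28-fold lower, adjusted p = 0.00176), both against pre-osteoblasts. Both calls were kept under every alternative run, and without pre-osteoblast culture 2 the differences were -1.87 and -2.40. Osteosarcoma and osteoblasts differed by -0.53 ± 0.30 (adjusted p = 0.248), and by -0.82 without line 493H (adjusted p = 0.0628).

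Tap2 was at 10.44, 9.76 and 10.30 in undifferentiated cultures, 9.82, 9.74 and 9.75 in osteoblast cultures, and 9.33, 8.94 and 8.94 in 493H, 494H and 716H. The tumour lines lay below every Kusa4b10 culture, and pre-osteoblast culture 2 lay within the osteoblast range. Tap2 was lower in osteosarcoma than in pre-osteoblasts by a log2 difference of -1.10 ± 0.18 (2.14-fold, adjusted p = 0.00310), kept under every alternative run. It was also lower than in osteoblasts, by -0.70 ± 0.18 (adjusted p = 0.0192), but that call was lost without line 494H (adjusted p = 0.0525), line 716H (0.0549), osteoblast culture 1 (0.0665) or osteoblast culture 3 (0.0558). Osteoblasts differed from pre-osteoblasts by -0.40 ± 0.18 (adjusted p = 0.149), and without pre-osteoblast culture 2 by -0.60, which was called (adjusted p = 0.0163).

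Tapbp encodes tapasin, which bridges class I molecules and TAP in the loading complex. It was at 12.18, 11.78 and 12.09 in undifferentiated cultures, 11.10, 10.52 and 11.05 in osteoblast cultures, and 11.12, 10.77 and 11.36 in 493H, 494H and 716H. All pre-osteoblast cultures were above all other arrays, and osteoblasts and tumour lines overlapped. The difference was -1.13 ± 0.20 in osteoblasts (2.19-fold lower, adjusted p = 0.00404) and -0.94 ± 0.20 in osteosarcoma (1.92-fold lower, adjusted p = 0.0111) against pre-osteoblasts, and both calls were kept under every alternative run. Between osteosarcoma and osteoblasts it was 0.19 ± 0.20 (adjusted p = 0.546). Unlike Tap1, Tapbp had its highest tumour level in 716H and not in 493H, a comparison of single arrays that has no test.

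**Figure D2:**
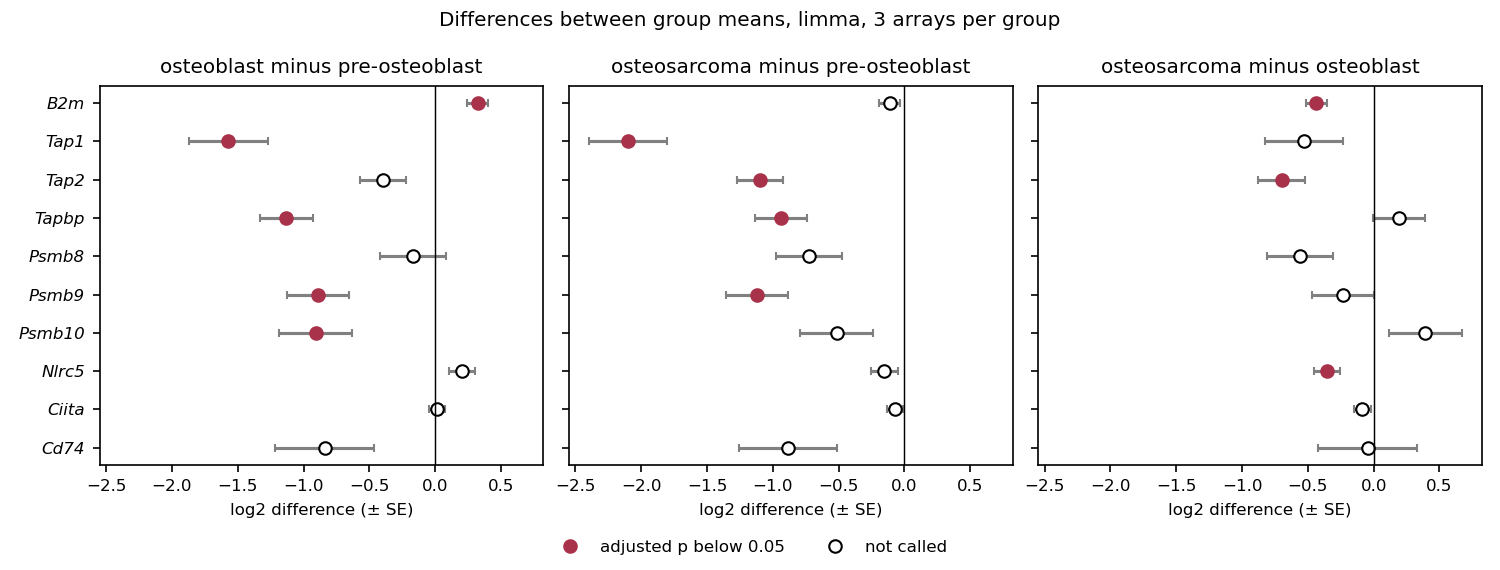
Log2 difference between group means (x axis) for each of the 10 genes (rows) in the 3 comparisons; points are limma estimates with 3 arrays per group, horizontal lines are SE, and filled points have an adjusted p below 0.05. Tap1 shows the largest differences, -1.57 and -2.10 against pre-osteoblasts, and B2m is the only filled point to the right of 0.

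Psmb8, Psmb9 and Psmb10 encode the catalytic immunoproteasome subunits beta-5i, beta-1i and beta-2i. Psmb9 was at 10.16, 9.36 and 10.26 in undifferentiated cultures, 9.07, 8.99 and 9.04 in osteoblast cultures, and 9.15, 8.59 and 8.68 in 493H, 494H and 716H. All pre-osteoblast cultures lay above the other arrays, with culture 2 nearest to them. Psmb9 was lower in osteosarcoma than in pre-osteoblasts by a log2 difference of -1.12 ± 0.24 (2.17-fold, adjusted p = 0.0105), kept under every alternative run. In osteoblasts the difference was -0.89 ± 0.24 (adjusted p = 0.0250), and this call was lost when osteoblast culture 1, 2 or 3 or pre-osteoblast culture 1 or 3 was left out (adjusted p from 0.0682 to 0.0864), while without pre-osteoblast culture 2 it was -1.17 (adjusted p = 0.00301). Osteosarcoma against osteoblasts gave -0.23 ± 0.24 (adjusted p = 0.541).

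Psmb10 was at 11.13, 9.96 and 10.96 in undifferentiated cultures, 9.84, 9.62 and 9.87 in osteoblast cultures, and 10.42, 10.04 and 10.04 in 493H, 494H and 716H. Pre-osteoblast culture 2 was 1.08 below the mean of the other cultures and lay below all tumour lines. The difference between osteoblasts and pre-osteoblasts was -0.91 ± 0.28 (adjusted p = 0.0444). That call was lost when any array other than pre-osteoblast culture 2 was left out (adjusted p from 0.0509 to 0.142), with repeated quantile normalization (0.0728) and in a fit of only the compared groups (0.0660), whereas without pre-osteoblast culture 2 the difference was -1.27 (adjusted p = 0.00167). Osteosarcoma against pre-osteoblasts gave -0.52 ± 0.28 (adjusted p = 0.241), and without pre-osteoblast culture 2 -0.88, which was called (adjusted p = 0.00663). Against osteoblasts the tumour lines had a difference of 0.39 ± 0.28 (adjusted p = 0.364), with all lines above all osteoblast cultures.

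Psmb8 was at 9.41, 8.74 and 9.44 in undifferentiated cultures, 9.25, 8.84 and 9.0003 in osteoblast cultures, and 8.95, 8.29 and 8.18 in 493H, 494H and 716H. The groups overlapped in all 3 comparisons. Psmb8 passed no test: the differences were -0.17 ± 0.25 in osteoblasts against pre-osteoblasts (adjusted p = 0.699), -0.73 ± 0.25 in osteosarcoma against pre-osteoblasts (0.0720) and -0.56 ± 0.25 in osteosarcoma against osteoblasts (0.144). Without line 493H both tumour comparisons were called, at -0.97 (adjusted p = 0.0224) and -0.80 (0.0389), and the first was also called without pre-osteoblast culture 2 (-0.96, adjusted p = 0.0290) and with only genes above the median level in the test (0.0437).

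Each immunoproteasome subunit takes the place of a standard one: Psmb8 that of Psmb5, Psmb9 that of Psmb6 and Psmb10 that of Psmb7. The difference in log2 level within each pair was set relative to its mean over the 9 arrays, so that 0 is the average array. For Psmb9 and Psmb6 it was 0.93, -0.07 and 1.02 in undifferentiated cultures, 0.02, 0.01 and 0.02 in osteoblast cultures, and -0.23, -1.06 and -0.64 in 493H, 494H and 716H. The tumour lines lay below all Kusa4b10 cultures, by -1.27 against pre-osteoblasts and -0.66 against osteoblasts. For Psmb8 and Psmb5 it was 0.73, -0.02 and 0.70, then 0.38, 0.03 and 0.19, then -0.10, -1.02 and -0.88, again with the tumour lines lowest (-1.13 and -0.87). For Psmb10 and Psmb7 it was 0.92, -0.24 and 0.73, then -0.11, -0.18 and 0.07, then -0.03, -0.80 and -0.35, and the groups overlapped (-0.86 and -0.32). With 3 arrays against 3 the smallest exact permutation p is 0.10, which the tumour comparisons of the first 2 pairs reached (two-sided exact permutation test, adjusted over 9 comparisons 0.23). No comparison could therefore pass 0.05. A pair value falls with a lower immunoproteasome subunit or with a higher standard one. In osteosarcoma against osteoblasts Psmb8 and Psmb9 alone differed by -0.56 and -0.23 and Psmb10 by 0.39, none of them called. The standard subunits moved too: 13 of 14 constitutive 20S core genes were higher in osteosarcoma than in osteoblasts, against 14.7% of all genes (median 0.61, lowest count 10 and highest 14 with 1 array left out). Psmb5, Psmb6 and Psmb7 were among the 13. The Psmb5 call was lost without osteoblast culture 2 (limma adjusted p = 0.0530) or 3 (0.0635). It was also lost with median centring (0.0549), in a fit of only the compared groups (0.0534) and without culture 2 of both Kusa4b10 groups (0.0836). In osteosarcoma against pre-osteoblasts 4 of 14 were higher and 0 lower, against 9.96% and 13.5% of all genes (median 0.23). In osteoblasts 8 of 14 were lower than in pre-osteoblasts, against 15.8% of all genes (median -0.32, 5 without osteoblast culture 1, highest 10).

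Nlrc5, the transactivator of class I genes, has 19 probe sets on this array, and the other 9 genes have 1 each. The brightest Nlrc5 probe set, which the gene fit used, was at 10.43, 10.43 and 10.32 in osteoblasts, 10.21, 10.06 and 10.30 in pre-osteoblasts, and 9.86, 10.05 and 10.21 in 493H, 494H and 716H. Osteosarcoma was lower than osteoblasts by a log2 difference of -0.35 ± 0.10 (adjusted p = 0.0306), a call lost without 493H (0.0820), 494H (0.0591), osteoblast culture 1 (0.0968), 2 (0.0857) or 3 (0.0537) and in a fit of those groups only (0.0550). The other differences were 0.20 ± 0.10 in osteoblasts (adjusted p = 0.190) and -0.15 ± 0.10 in osteosarcoma (0.342) against pre-osteoblasts. Each of these differences was smaller than the median of the 19 probe sets, so all were fitted as separate features, an alternative chosen after the data had been seen. The probe sets lie in 1 gene and are not replicates.

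Over the 19 probe sets, the mean level was 8.10, 8.04 and 7.98 in osteoblasts, 7.94, 7.47 and 7.89 in pre-osteoblasts, and 7.50, 7.31 and 7.37 in 493H, 494H and 716H. All osteoblast cultures were above all tumour lines, and pre-osteoblast culture 2 lay among the lines. Osteosarcoma was lower than osteoblasts on 15 of 19 probe sets and higher on 0, against 12.9% and 14.8% of 21789 single probe sets, and all 19 differences were negative (-1.48 to -0.11, median -0.56). Osteosarcoma was lower than pre-osteoblasts on 4 and higher on 0, against 13.6% and 10.3%, with a median of -0.33. Osteoblasts were higher than pre-osteoblasts on 4 and lower on 0, against 10.6% and 15.7%, with a median of 0.26. Pre-osteoblast culture 2 was the lowest of its group on 18 of the 19 probe sets. With the mean of the probe sets as the gene's value, the limma difference was -0.65 between osteosarcoma and osteoblasts (adjusted p = 0.00518). Nlrc5 was called on fewer probe sets in either comparison with pre-osteoblasts than between osteosarcoma and osteoblasts. The means of pre-osteoblast cultures 1 and 3 (7.94 and 7.89) lay above all tumour lines and below all osteoblast cultures. The separate probe sets were not fitted without culture 2, so how far these counts turn on it was not tested.

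**Figure D3:**
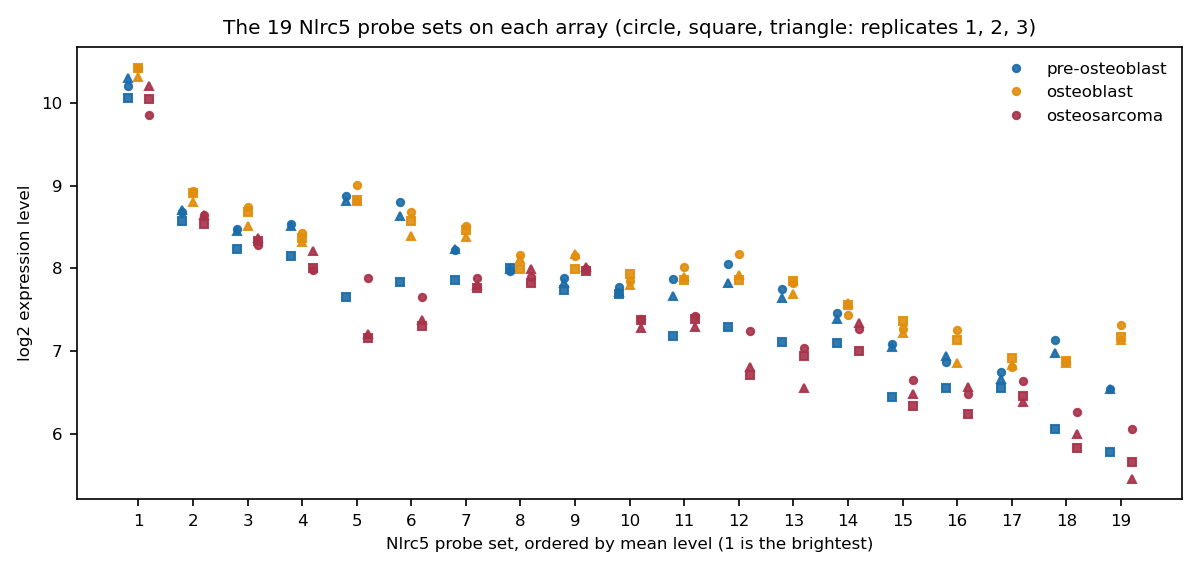
Log2 expression level (y axis) of the 19 Nlrc5 probe sets, ordered by mean level on the x axis, on each of the 9 arrays; colours are groups, and circles, squares and triangles are replicates 1, 2 and 3. Osteoblast values lie above all tumour lines on 17 of the 19 probe sets, which read 1 gene, as they do for 3807 of all 19938 genes. The gap is narrow for the brightest probe set (-0.35) and wide for the dimmest (-1.48).

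Ciita, the master regulator of class II genes, was at 6.60, 6.56 and 6.59 in osteoblasts, 6.56, 6.58 and 6.56 in pre-osteoblasts, and 6.36, 6.56 and 6.56 in 493H, 494H and 716H. Its whole range was 0.23, and no comparison passed the test (limma adjusted p from 0.379 to 0.911). Its mean level was at percentile 26.8 of all genes, and whether that exceeds background is not known. Cd74, with a mean level at percentile 33.0, encodes the invariant chain that occupies the groove of new class II molecules. It was at 8.34, 6.78 and 7.23 in undifferentiated cultures, 6.76, 6.42 and 6.64 in osteoblast cultures, and 7.02, 6.18 and 6.49 in 493H, 494H and 716H. Pre-osteoblast culture 1 stood 1.33 above the mean of the other cultures, and each group overlapped with the tumour lines. Cd74 passed no test, with -0.84 ± 0.37 in osteoblasts (adjusted p = 0.148) and -0.89 ± 0.37 in osteosarcoma (0.135) against pre-osteoblasts, and -0.05 ± 0.37 between osteosarcoma and osteoblasts (0.950).

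Of the other class II genes, 8 of 10 chains and peptide editors were measured. H2-DMa, a chain of the editor that exchanges peptides on class II, was lower than in pre-osteoblasts in both other groups, by log2 differences of -0.60 (adjusted p = 0.00534) and -0.61 (0.00554). It was the only one of the 8 called, where 15.8% and 13.5% of all genes were lower. H2-Aa, a class II chain, lay between 5.003 and 5.37 on all arrays. Of 7 class II processing enzymes, 1 was higher and 0 lower in osteoblasts than in pre-osteoblasts, where 10.3% and 15.8% of all genes were. In osteosarcoma 2 were higher and 1 lower than in pre-osteoblasts (9.96% and 13.5% of all genes). Against osteoblasts 1 was higher and 2 lower in osteosarcoma (14.7% and 12.7%). Without line 493H or 716H, or pre-osteoblast culture 2 or 3, the 2 higher calls in osteosarcoma against pre-osteoblasts, Lgmn and Ctsl, were both lost. Ctsh (cathepsin H) was lower in osteosarcoma against pre-osteoblasts (-1.47, adjusted p = 1.84e-04) and osteoblasts (-1.27, adjusted p = 2.58e-04). Lgmn (legumain) was higher in osteosarcoma than in osteoblasts (0.96, adjusted p = 0.00343) and Ctsd (cathepsin D) was lower (-0.74, adjusted p = 0.00577). Ctsl (cathepsin L) was the enzyme higher in osteoblasts against pre-osteoblasts (0.90 ± 0.19, adjusted p = 0.00830), a call kept in 18 of 18 alternatives. The mean of 19 measured markers of haematopoietic and antigen-presenting cells was 6.42 to 6.47 in osteoblasts, 6.49 to 6.52 in pre-osteoblasts and 6.43 to 6.48 in osteosarcoma, with Ptprc between 5.97 and 6.21 and Adgre1 between 5.58 and 5.67 on all arrays. Of the 19, Cd14 (-0.43) and Cd79a (-0.34) were lower in osteoblasts against pre-osteoblasts, where 15.8% of all genes were lower. Cd14 was higher (0.48) and Fcer1g lower (-0.23) in osteosarcoma against osteoblasts (14.7% and 12.7% of all genes). In osteosarcoma against pre-osteoblasts 0 were called (9.96% of all genes higher, 13.5% lower). Both lower calls in osteoblasts were lost without osteoblast culture 1 or 2 (Cd14 0.0611 and 0.0542, Cd79a 0.0538 and 0.0974, limma adjusted p), and Cd79a kept its call in 7 of 16 alternatives. The Fcer1g call was lost without osteoblast culture 2 (adjusted p = 0.0537) or 3 (0.0611).

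Of 25 listed class I heavy chains and class I-like genes, 15 were measured, and 10, among them H2-K1 and H2-D1, were not analysed here. H2-Q4 was at 9.74, 9.16 and 9.51 in osteoblasts, 10.05, 8.88 and 9.80 in pre-osteoblasts, and 7.52, 6.94 and 6.35 in 493H, 494H and 716H. All tumour lines lay far below all Kusa4b10 cultures, by -2.64 ± 0.37 against pre-osteoblasts (6.23-fold, adjusted p = 0.00156) and -2.53 ± 0.37 against osteoblasts (5.78-fold, adjusted p = 0.00147). H2-Q5 was lower in osteosarcoma by -1.04 (adjusted p = 0.0141) and -1.64 (0.00137), and its first call was lost without pre-osteoblast culture 1 (0.0538) or 3 (0.0556). These genes are near-identical copies and differ between mouse strains, so a probe set may read several of them or an allele, and the strain of Kusa4b10 is not given. Of the 15 genes, 0 were higher and 2 lower in each tumour comparison (medians -0.05 and -0.08). The lower counts were near the shares of all genes, 13.5% against pre-osteoblasts and 12.7% against osteoblasts. In osteoblasts 1 of the 15, Mr1, was lower than in pre-osteoblasts, where 15.8% of all genes were lower. Its difference was -0.47 (adjusted p = 0.0328), a call lost when any osteoblast culture or pre-osteoblast culture 1 was left out.

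Peptide supply and loading was followed with chaperones and export factors of the endoplasmic reticulum and with peptidases, some of them cytosolic. Of 17 measured genes, 8 were higher and 3 lower in osteoblasts than in pre-osteoblasts (median 0.23), against 10.3% and 15.8% of all genes, and 2 were higher and 6 lower in osteosarcoma than in osteoblasts (median -0.09), against 14.7% and 12.7%. Sel1l, of the machinery that removes misfolded proteins from the endoplasmic reticulum, exceeded the pre-osteoblast level in osteoblasts by 1.23 ± 0.13 (adjusted p = 4.01e-04), and the chaperone Hspa5 by 1.02 ± 0.07 (5.81e-05). Derl1, of the same machinery as Sel1l, was higher by 0.85 ± 0.16 (0.00601) and the folding sensor Uggt1 by 0.90 ± 0.08 (1.39e-04). Sel1l, Hspa5 and Derl1 were lower in osteosarcoma than in osteoblasts, by -1.19, -0.72 and -0.95, and these calls were kept under every alternative run. The aminopeptidase Lap3 had -0.70 in osteoblasts against pre-osteoblasts (adjusted p = 0.00217) and 0.86 in osteosarcoma against osteoblasts (7.81e-04). In osteosarcoma against pre-osteoblasts 4 of the 17 were higher and 2 lower, against 9.96% and 13.5% of all genes. Without line 493H or pre-osteoblast culture 2 the counts were 2 and 1.

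The proteasome activator PA28 was lower in both other groups than in pre-osteoblasts. Its subunit Psme1 was at 11.60, 11.27 and 11.57 in undifferentiated cultures, 10.58, 10.20 and 10.42 in osteoblast cultures, and 10.55, 10.17 and 10.57 in 493H, 494H and 716H. The pre-osteoblasts lay above all other arrays, by log2 differences of -1.08 ± 0.15 for osteoblasts (adjusted p = 0.00123) and -1.05 ± 0.15 for osteosarcoma (0.00166). Psme2, the partner subunit, had -0.74 ± 0.09 (6.03e-04) and -0.76 ± 0.09 (6.24e-04). The assembly factor Psmg2 had a higher osteosarcoma than pre-osteoblast level (1.17, adjusted p = 1.90e-04), and Pomp, which assembles immunoproteasomes and standard proteasomes, had a lower osteoblast than pre-osteoblast level (-0.73, adjusted p = 0.00326) and higher in osteosarcoma than in osteoblasts (0.58, adjusted p = 0.00907). Of the 9 activators and assembly factors, 2 were higher and 5 lower in osteoblasts than in pre-osteoblasts, against 10.3% and 15.8% of all genes. The lower count was 3 without osteoblast culture 1 or 3 or pre-osteoblast culture 2. In osteosarcoma 2 were higher and 3 lower than in pre-osteoblasts (9.96% and 13.5% of all genes). Against osteoblasts 3 were higher and 0 lower in osteosarcoma (14.7% and 12.7%).

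Class I and II promoters carry a shared set of boxes bound by RFX, NF-Y and CREB, the MHC enhanceosome. Rfx5, the DNA-binding subunit of RFX, was lower than in pre-osteoblasts by a log2 difference of -0.78 ± 0.09 in osteoblasts (adjusted p = 7.26e-04) and -0.83 ± 0.09 in osteosarcoma (6.44e-04). Nfyb, a subunit of NF-Y, had -0.70 ± 0.07 (3.67e-04) and -0.70 ± 0.07 (4.21e-04). Of the 8 enhanceosome genes, 3 were lower in osteoblasts and 2 in osteosarcoma, and 0 and 1 were higher, against 15.8%, 13.5%, 10.3% and 9.96% of all genes. The 1 higher gene, Atf1, kept its call in 11 of 17 alternatives and lost it without line 493H or 716H or any pre-osteoblast culture.

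Of 20 measured regulators of interferon and NF-kB signalling, 3 were higher and 5 lower in osteoblasts than in pre-osteoblasts, against 10.3% and 15.8% of all genes. The lower count was 1 without pre-osteoblast culture 1 or 3. The higher count was 1 without osteoblast culture 1 or 3, pre-osteoblast culture 2 or 3 or line 716H. In osteosarcoma 3 were higher and 6 lower than in pre-osteoblasts, against 9.96% and 13.5%. That higher count was 1 without line 493H or any single pre-osteoblast culture. In osteosarcoma against osteoblasts 1 was higher and 4 lower, against 14.7% and 12.7% of all genes, and leaving out 1 array gave 0 to 3 higher and 2 to 5 lower. The higher gene, Socs3, kept its call in 6 of 17 alternatives, and of the lower ones Irf9 did so in 7 and Relb in 10 of 17. Irf1, a transcription factor that binds the interferon motif, was lower by -0.87 ± 0.16 in osteoblasts (adjusted p = 0.00424) and -0.90 ± 0.16 in osteosarcoma (0.00428), and with the mean of its probe sets the first difference was -0.43 (adjusted p = 0.00662). Irf7, the main amplifier of type I interferon, was at 11.83, 10.61 and 11.80 in undifferentiated cultures, 9.63, 9.14 and 9.70 in osteoblast cultures, and 9.46, 7.43 and 6.68 in 493H, 494H and 716H. The pre-osteoblasts lay above the other arrays, 493H lay with the osteoblasts, and the other lines lay lower. The difference of osteosarcoma from pre-osteoblasts was -3.56 ± 0.66 (11.8-fold, adjusted p = 0.00577). Osteoblasts differed from pre-osteoblasts by -1.92 ± 0.66 (adjusted p = 0.0656), which was called in 6 of 18 alternatives. Among them were the fits without line 493H (0.00839) or 716H (0.0355) and the fit of only the compared groups (0.00803). Osteosarcoma differed from osteoblasts by -1.63 ± 0.66 (adjusted p = 0.107), and without line 493H by -2.43, which was called (0.00575). Stat2 and Irf9, transcription factors of type I interferon signalling, were lower in osteosarcoma by -2.27 ± 0.33 (0.00204) and -1.70 ± 0.25 (0.00204). Those 4 osteosarcoma calls were kept under every alternative run.

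Genes of the 10, such as Tap1, Psmb8, Psmb9 and Psmb10, are themselves induced by interferon, and other interferon-stimulated genes were listed beside them. Of 27 measured, 7 were lower and 1 higher in osteoblasts than in pre-osteoblasts (median -1.11), against 15.8% and 10.3% of all genes. In osteosarcoma 13 were lower and 0 higher than in pre-osteoblasts (median -1.59), against 13.5% and 9.96%. In osteosarcoma against osteoblasts 2 were lower and 0 higher (median -0.34), against 12.7% and 14.7%. That last lower count was below the share of all genes. These counts turned on single arrays: leaving out 1 array gave 3 to 12, 5 to 18 and 2 to 7 lower genes. The first count was 3 without osteoblast culture 1 or 2 or pre-osteoblast culture 1 or 3, and 12 without pre-osteoblast culture 2. The second was 5 without pre-osteoblast culture 1, 17 without culture 2 and 18 without line 493H, and the third was 7 without line 493H. Gbp4, an interferon-induced GTPase, was the 1 higher gene, in osteoblasts, at 8.70, 8.46 and 8.90, than in pre-osteoblasts, at 6.04, 5.60 and 6.13 (2.76 ± 0.20, adjusted p = 7.03e-05). Cxcl10, a chemokine that draws T cells, was lower in osteoblasts against pre-osteoblasts (-2.83 ± 0.44, adjusted p = 0.00217). Bst2, another gene of the list, was lower in osteosarcoma than in pre-osteoblasts and osteoblasts, and each call was kept in 17 of 17 alternatives. Its log2 differences over the alternatives were -2.38 to -1.73 and -2.16 to -1.71.

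**Figure D4:**
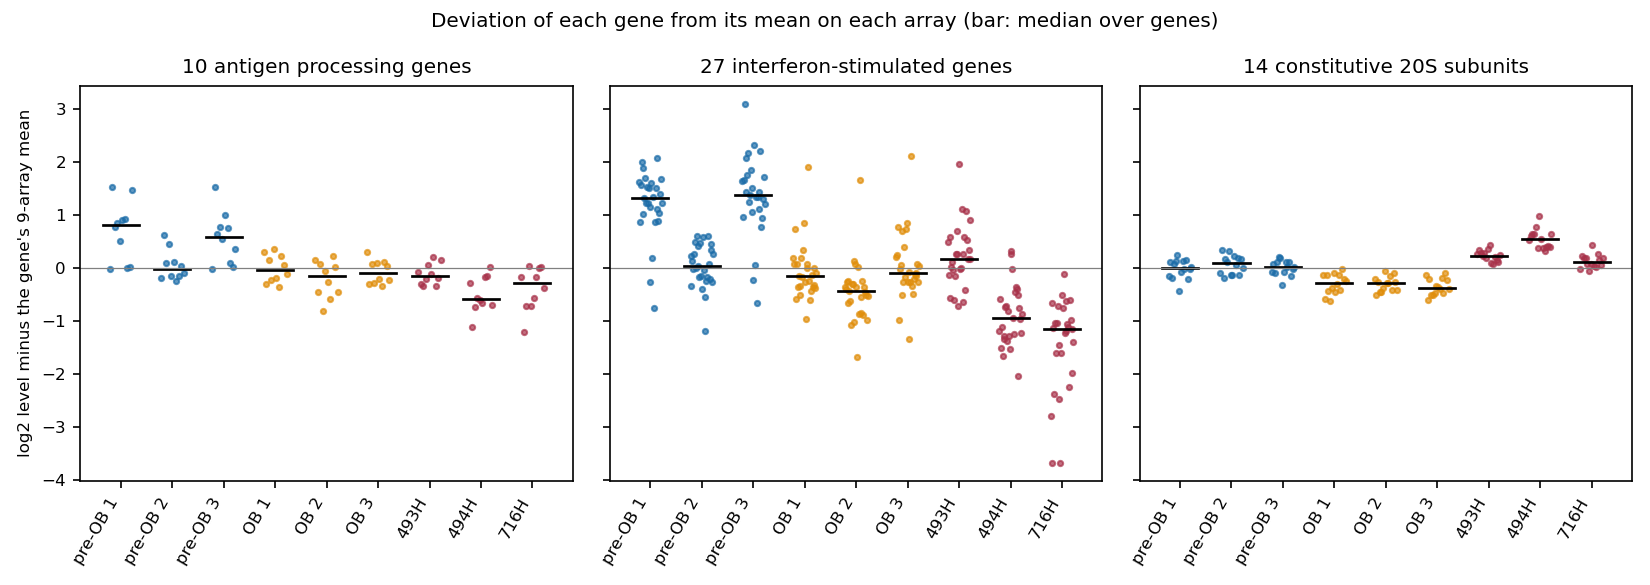
Log2 level of each gene minus its mean over the 9 arrays (y axis), by array (x axis), for the 10 antigen processing genes, 27 interferon-stimulated genes and 14 constitutive 20S proteasome subunits; each point is a gene and bars are medians over genes. Pre-osteoblast culture 2 lies below its sister cultures and line 493H above its sister lines in the first and second panels. In the third panel line 494H is the highest tumour line for 14 of 14 genes, against 37.4% of all genes.

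Genes with the most similar profile were found for the 7 members that ranged over at least 1 log2, by Pearson correlation over the 9 arrays among 4516 genes with as wide a range. The correlation is a description, since the arrays share 3 groups. Tap1 was closest to Trim21 (0.985), Rnf135 (0.985) and Ly6e (0.984), and Tap2 to Trafd1 (0.985), Rnf114 (0.973) and Hdac11 (0.970). Tapbp was closest to Insig1 (0.992), E230016K23Rik (0.984) and Irf1 (0.978). Psmb8 was closest to Gm4951 (0.968), Tor3a (0.968) and Phf11d (0.956), Psmb9 to Oasl1 (0.995), Parp9 (0.981) and Cmpk2 (0.980), and Psmb10 to Tnfsf10 (0.968), Setdb2 (0.958) and Gbp7 (0.943). Cd74 was closest to C1ra (0.963), Tapbpl (0.932) and Septin4 (0.927).

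Markers of cell state moved with the groups. Beside their counts, 10.3% of all genes were higher and 15.8% lower in osteoblasts than in pre-osteoblasts. In osteosarcoma 9.96% of all genes were higher and 13.5% lower than in pre-osteoblasts, and 14.7% and 12.7% than in osteoblasts. Of 9 osteoblast-lineage markers, 6 were higher in osteoblasts than in pre-osteoblasts, among them Ibsp, a matrix protein of mineralising bone (6.97, adjusted p = 4.61e-05), and their mean was 11.90 to 12.55 in osteoblasts, 9.30 to 9.77 in pre-osteoblasts and 9.60 to 10.15 in osteosarcoma. Of 6 adipocyte markers, 4 were higher in osteoblasts than in pre-osteoblasts, with means of 11.38 to 12.25 and 8.70 to 9.36, and all 6 were lower in osteosarcoma (7.84 to 8.59) than in osteoblasts. Of 7 endothelial markers, only Eng was called, and it was higher in osteosarcoma (10.45 to 10.72) than on the Kusa4b10 arrays (7.48 to 7.81), and of 8 stromal markers 3 were higher and 1 lower in osteoblasts, and 2 higher and 1 lower in osteosarcoma, against pre-osteoblasts. With 1 array left out, the lower count in osteoblasts ran from 0 to 2 (Vim was lost without osteoblast culture 1 or 3 or pre-osteoblast culture 1 or 3), and the counts in osteosarcoma from 1 to 3 higher (Dcn kept its call in 8 of 17 alternatives) and from 0 (without pre-osteoblast culture 1) to 1 lower. The part of these shifts in the levels of the antigen processing genes was not tested, and fewer cells of a type cannot be told apart from less RNA per cell.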

How the data were processed

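Total RNA of 9 cell samples was hybridised to arrays, 3 per group; per the labels, Kusa4b10 cultures are independent samples, and each osteosarcoma line has 1 array, which makes the spread of that group a spread over lines. The authors deposited 1 log2 value for each probe set and array after RMA, with mm9 as the build named, both per the submitters' processing notes; the sources used here give neither an RMA version nor filters. Normalization makes each difference relative to the other genes of an array.

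Of 35556 probe sets, 21789 carried 1 gene symbol in the platform annotation, 1621 several and 12146 none; only the first were used. For 999 genes with several probe sets the one with the highest mean was taken, leaving 19938 genes. Tapbp had 2 further probe sets shared with another gene, not used. With limma 3.58.1 under R 4.3.3, the 9 arrays were fitted together by their 3 group means (lmFit, eBayes; two-sided; Benjamini-Hochberg over all genes; called at an adjusted p below 0.05), and the procedure was tested on simulated data. Each gene has 1 estimate of spread from all 9 arrays. The spread over the tumour lines thus enters the comparison between the Kusa4b10 groups too. At most 4.33% of values were equal between arrays of a group. The number of arrays limits the precision.

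The 10 genes and the pathway and marker lists were chosen with earlier results of these data known. Named genes are all 10, up to 5 called genes per list by size of difference, up to 2 uncalled ones where a result turns on them, and the 3 genes most like each member. Alternatives were filters on dim genes, the mean of probe sets, quantile normalization again, median centring, array weights, only the compared groups, each array left out and a replicate block; 2 were added after the data were seen: leaving out culture 2 of both Kusa4b10 groups, and separate Nlrc5 probe sets.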

Additional observations from a re-analysis of the deposited data

How the results depend on the processing

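Of 514 results for single genes under the alternatives, 472 kept their direction and side of the threshold, 30 lost and 9 gained a call, and 3 reversed. The reversals were of uncalled genes: Ciita in osteoblasts against pre-osteoblasts was -0.0181 with repeated quantile normalization, and Cd74 in osteosarcoma against osteoblasts was 0.1449 without line 494H and 0.0316 without osteoblast culture 1 (range over the arrays left out -0.2726 to 0.1449). Leaving out 1 array, the count of the 10 genes in osteoblasts against pre-osteoblasts ran from 0 to 1 higher and from 2 to 5 lower, and in osteosarcoma against osteoblasts from 1 to 3 lower. Genes called higher in osteosarcoma against pre-osteoblasts over all genes ran from 1225 (without pre-osteoblast culture 3) to 2117, with 1986 over all arrays. Without culture 2 of both Kusa4b10 groups, an alternative chosen after the data were seen, 0 of the 10 were higher in osteoblasts. With a replicate block, osteoblasts against pre-osteoblasts again gave 1 higher and 4 lower of the 10 and changed no call among them. Of the 27 interferon-stimulated genes, the block called 20 lower in place of 7, with 6 called in both. Of the 15 class I heavy chains, it called 2 higher and 3 lower in place of 0 and 1. Deviations of same-numbered cultures correlated at 0.152, 0.176 and 0.028. Each pre-osteoblast culture correlated best with the osteoblast culture of its number. Osteoblast cultures 1 and 2 did so in turn, but osteoblast culture 3 correlated best with pre-osteoblast culture 1 (0.077). The labels call the cultures independent samples, and these low correlations do not settle whether same-numbered cultures were paired. With 3 arrays per group, calls near the threshold turn on single arrays, and signal over background is not known for these values.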
